A study of Mus musculus with 6 samples.

Results

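The 37 genes described here are a chosen set of type I interferon response genes: sensors of viral RNA, the signalling factors and regulators of the pathway, and the effectors it switches on. They were measured in cells grown from ovarian tumours of mice, labelled as ovarian surface epithelial (OSE) cells, the layer of cells over the outside of the ovary. Messenger RNA was hybridised to 6 Affymetrix mouse arrays, and the deposited values are linear signal intensities of 45101 probe sets. The series compares cells by their p53 status; p53 is a tumour suppressor that acts on DNA and halts division or triggers death of damaged cells. The homozygous group (2 arrays) carried the R172H mutation of p53 on both alleles and came from animals of 4 weeks. The heterozygous group (2 arrays) carried R172H beside a wild-type allele and came from animals of 9 and 12 weeks. The wild-type group (2 arrays) had normal p53 and came from animals of 9 weeks. All titles share the designation P/K, which the labels do not spell out, the strain background was mixed, and the cells were digested with trypsin, grown in serum and harvested without passaging. One field of the homozygous labels gives the name of a p53 relative, so group membership was taken from the titles.

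A gene was represented by the probe set that names it alone, and by the brightest where there were several. Of the 37 genes, 35 had such a probe set, of 18194 genes on the array. Isg15, which encodes a ubiquitin-like protein that is attached to other proteins, was on a probe set that also names another gene, and Ifi44 had no probe set of its own. A further 7 genes (Dhx58, Zbp1, Oas2, Oas3, Stat2, Mx1 and Mx2) were too dim to be tested, which left 28 among 10916 tested genes. The filter uses the mean over all arrays, so a gene high in a single array could pass through that array. The background level was set at 24.5, the highest signal of bacterial control probe sets, and 26 of the 35 genes lay above it in every array.

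Type I interferons are secreted proteins that warn cells of viral infection. Viral RNA or DNA is recognised by sensors in the cell, which activate the transcription factors IRF3 and IRF7 and so the interferon genes. Secreted interferon binds a receptor, whose kinases phosphorylate STAT2. STAT2 and IRF9 are parts of a complex that binds interferon-stimulated response elements in promoters and raises many antiviral genes. Epithelial cells carry the receptor and can respond in this way without any immune cell.

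The arrays did not stand equally far apart. Over all tested genes, the log2 differences had an SD of 1.30 between the 2 homozygous arrays, 0.55 between the heterozygous and 0.60 between the wild-type arrays. The smallest of all pairs, 0.31, joined heterozygous array 1 and wild-type array 2, which carry different labels. Over the 28 tested interferon genes the same measure was 1.90, 0.58 and 0.61 within the 3 groups. Age ran with homozygosity, so the effects of age and genotype cannot be told apart. The labels do not say whether the arrays of a group come from separate animals, and p-values measure only the spread between these arrays.

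Over the 28 tested interferon genes, the root mean square log2 difference was 3.41 between homozygous arrays 1 and 2. It was 2.75 to 3.04 between homozygous array 1 and the heterozygous and wild-type arrays, and 1.82 to 2.31 between homozygous array 2 and the same arrays. The SD of the log2 differences, which leaves out a shift shared by the 28 genes, was 1.90 between the homozygous arrays. It was 2.25 to 2.42 between homozygous array 1 and the others, and 1.64 to 1.91 between homozygous array 2 and the others. In homozygous array 2 the signal was at least 2-fold that of homozygous array 1 for 23 of the 28 tested genes (82.1%), against 14.7% of all tested genes. It was at least 4-fold for 17 (60.7%), against 6.61% of all. The set was chosen with earlier results of these data known, so these shares are a description and carry no test. Usp18 passed the filter on dim genes only through homozygous array 2. With the filter on the other 5 arrays, an alternative added after the data were seen, the counts were 22 and 16 of 27, against 14.4% and 6.42% of all genes that passed. For 0 of the 28 did array 1 exceed array 2 by at least 2-fold, against 6.31% of all tested genes. The median log2 difference, array 2 minus array 1, was 2.68 over the interferon genes (range -0.28 to 6.80) and 0.04 over all genes. This range, the root mean squares and the SDs use measured signals, including those under background. The upper end is Gbp2, at 3.43 in homozygous array 1, where only a difference of at least 15.6-fold is established. In these bulk samples, fewer expressing cells and less RNA per cell cannot be told apart.

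The heterozygous and wild-type pairs showed far less spread in the same genes. In the heterozygous pair the median difference, array 2 minus array 1, was -0.06, and 3 genes, Rtp4, Gbp3 and Cxcl10, were at least 2-fold higher in array 1 (3.85% of all tested genes were). For 0 genes was array 2 at least 2-fold higher, against 3.19% of all. In the wild-type pair the median was 0.26, against -0.03 over all tested genes, and 22 of the 28 genes were higher in array 2. Ifih1, Oas1a, Irf7 and Oasl1 were at least 2-fold higher in wild-type array 2 (4.03% of all tested genes were). Usp18 was the 1 gene whose measured signal was at least 2-fold higher in wild-type array 1 (4.68% of all tested genes were), but its wild-type array 2 was under background, so a fold of that size is not established.

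**Figure D1:**
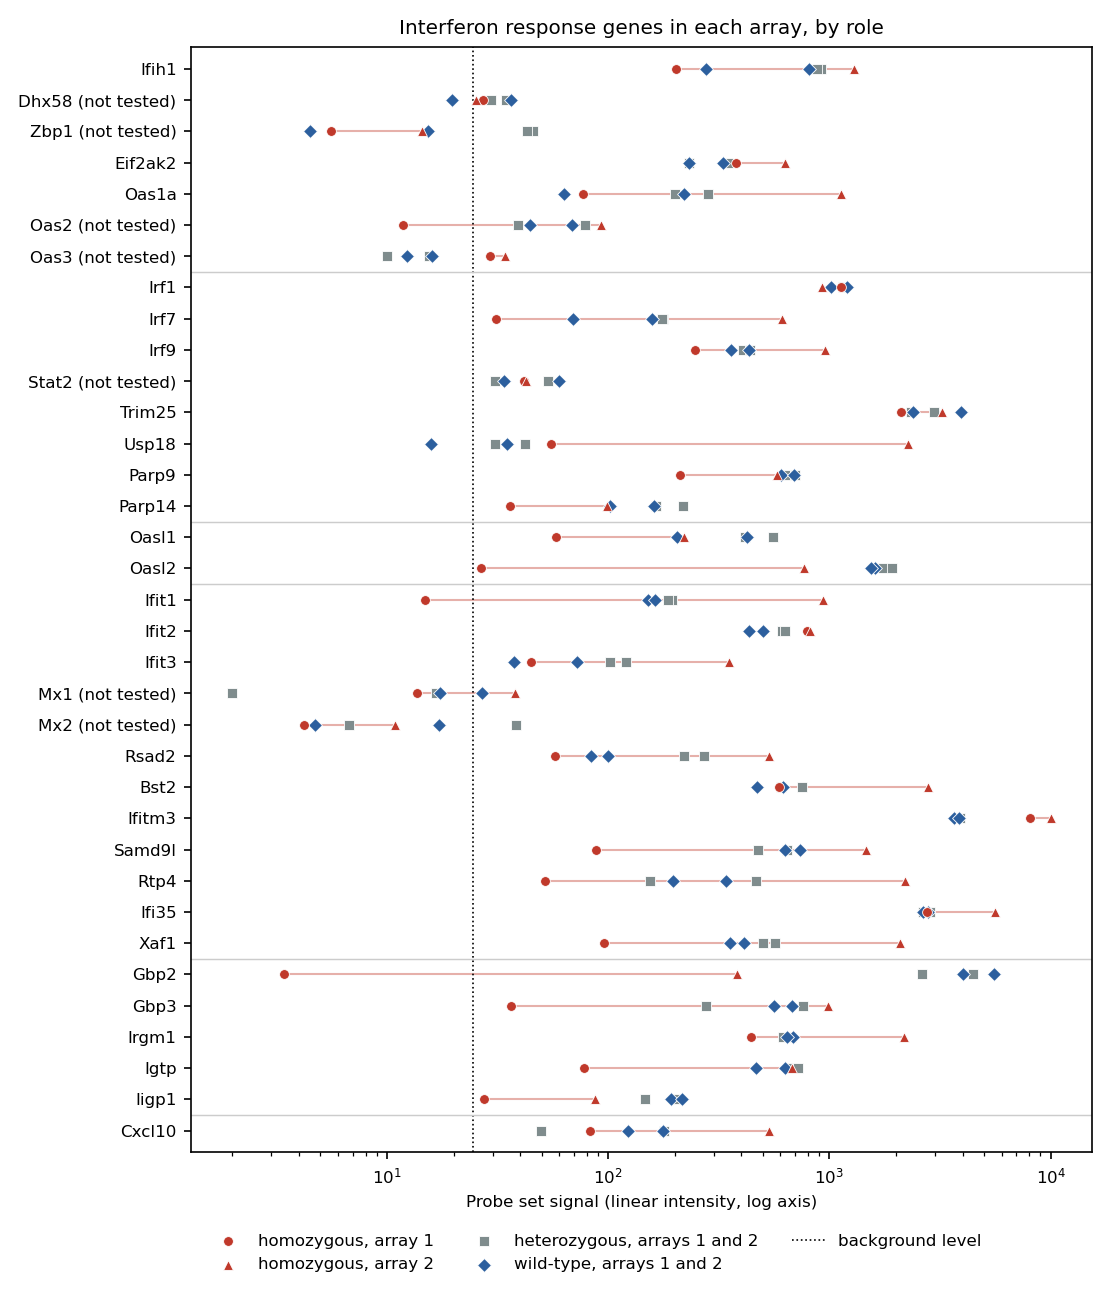
Signal of each of the 35 interferon response genes with a probe set in each of the 6 arrays, on a log axis of linear intensity, in rows grouped by role. Circles and triangles are homozygous arrays 1 and 2, joined by a line, squares are heterozygous and diamonds wild-type arrays, and the dotted line is the background level of 24.5. The triangle lies right of the circle for most genes, as for Usp18 (2255 against 55.2), while squares and diamonds cluster between or to one side.

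**Figure D2:**
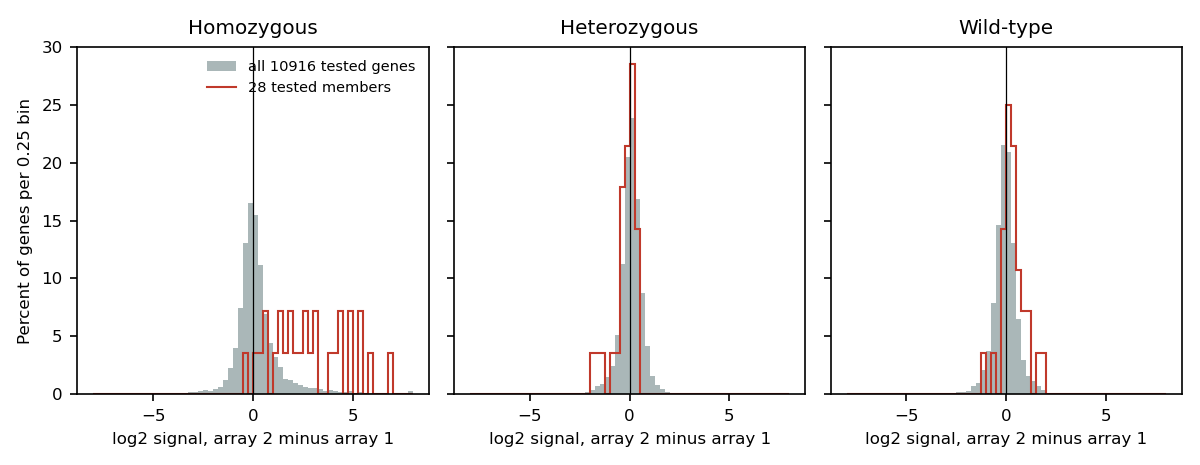
Distribution of log2 differences within a group, array 2 minus array 1, for homozygous, heterozygous and wild-type pairs, as percent of genes in bins of 0.25. Filled bars are all 10916 tested genes and the outline is the 28 tested interferon response genes. The outline spreads to the right in the homozygous panel, with a median of 2.68, and lies over the filled bars in the heterozygous panel (median -0.06). In the wild-type panel its median is 0.26, against -0.03 over all tested genes.

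Set against the range of the 4 heterozygous and wild-type arrays, the 28 genes fell into several patterns. For 10 genes (35.7%), homozygous array 1 lay below all 4 and homozygous array 2 above all 4, a pattern of 4.34% of all tested genes. These were Ifih1, Irf7, Irf9, Ifit1, Rsad2, Samd9l, Rtp4, Xaf1, Gbp3 and Irgm1. For 5 more (Oas1a, Ifit3, Bst2, Ifi35 and Cxcl10), array 2 lay above all 4 and array 1 among them, as for 4.65% of all tested genes. For Trim25, Oasl1 and Igtp, array 1 lay below all 4 and array 2 among them, as for 10.7% of all. Both homozygous arrays lay below all 4 for Parp9, Parp14, Oasl2, Gbp2 and Iigp1, where the background share is 28.9%. Both lay above for Eif2ak2, Usp18, Ifit2 and Ifitm3, where it is 23.4%. The remaining gene, Irf1, was mixed, as were 25.1% of all tested genes. For 0 genes did array 1 lie above all 4 and array 2 below, against 2.99% of all. The shares of genes with both homozygous arrays on one side do not stand above the background.

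Promoters of 27 of the 37 genes are in the RefSeq table of the mouse build GRCm38.p6, as the 250 bases before and 50 after each transcription start. The core of an interferon-stimulated response element was searched on both strands, as GAAA and a further GAAA with any 2 bases between them. The motif occurred in 16 of these 27 genes (59.3%), against 1079 of 27025 genes with a promoter in the table (3.99%). The letters TTCNNNGAA of a STAT binding site (GAS element) occurred in 8 of the 27 (29.6%) and in 9.55% of all genes. That motif is shorter, and the letters of the motifs may overlap. A match is a description of the sequence and not a measured binding site. The promoters of Ifit1 (chr19:34640639-34640938, plus strand), Irgm1 (chr11:48871371-48871670, minus strand), Oas1a (chr5:120907476-120907775, minus strand) and Gbp2 (chr3:142620413-142620712, plus strand) are shown because they hold the same motif and show 3 of the patterns above, with Ifit1 and Irgm1 sharing 1. Each is written from 5′ to 3′ on the strand of the gene, and the capitals mark the matches to the response element in either orientation.
Ifit1: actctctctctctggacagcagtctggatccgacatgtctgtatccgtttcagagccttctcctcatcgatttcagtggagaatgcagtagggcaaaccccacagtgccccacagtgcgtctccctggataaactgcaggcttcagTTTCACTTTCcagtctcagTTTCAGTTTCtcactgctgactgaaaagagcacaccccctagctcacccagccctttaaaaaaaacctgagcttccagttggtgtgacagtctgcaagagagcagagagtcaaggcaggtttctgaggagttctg
Irgm1: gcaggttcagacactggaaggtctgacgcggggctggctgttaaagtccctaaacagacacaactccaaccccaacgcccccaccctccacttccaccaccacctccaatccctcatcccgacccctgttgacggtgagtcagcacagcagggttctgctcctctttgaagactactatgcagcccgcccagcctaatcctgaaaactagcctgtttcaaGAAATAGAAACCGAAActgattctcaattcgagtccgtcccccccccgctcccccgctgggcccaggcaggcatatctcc
Oas1a: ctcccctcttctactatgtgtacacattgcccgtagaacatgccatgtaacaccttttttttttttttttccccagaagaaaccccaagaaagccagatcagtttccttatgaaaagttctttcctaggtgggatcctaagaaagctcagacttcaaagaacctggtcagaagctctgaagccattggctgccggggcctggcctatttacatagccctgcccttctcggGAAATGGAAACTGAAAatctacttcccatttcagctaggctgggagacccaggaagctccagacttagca
Gbp2: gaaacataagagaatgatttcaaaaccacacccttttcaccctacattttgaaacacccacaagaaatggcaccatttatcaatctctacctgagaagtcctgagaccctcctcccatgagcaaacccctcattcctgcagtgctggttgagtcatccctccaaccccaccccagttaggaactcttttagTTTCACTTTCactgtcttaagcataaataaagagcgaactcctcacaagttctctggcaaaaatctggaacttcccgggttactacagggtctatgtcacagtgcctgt

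In Ifit1 there were 2 matches, starting at positions -104 and -85 from the transcription start. Irgm1 had 2 overlapping matches at -30 and -24, and Oas1a had 2 overlapping matches at -20 and -14. Gbp2 had 1 match, at -59. The first 3 of these genes had more signal in homozygous array 2 than in any heterozygous or wild-type array, and Gbp2 had less.

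Among the RNA sensors, 3 of 7 were bright enough to be tested, and 2 of these differed at least 2-fold between the homozygous arrays. Values of a group are given in the order array 1, array 2 throughout. Ifih1, the cytoplasmic sensor of long double-stranded RNA also known as MDA5, had signals of 203 and 1289.7 in homozygous arrays, against 913 and 876 in heterozygous and 276 and 808 in wild-type arrays. Wild-type array 1 lay near homozygous array 1, so the wild-type pair was itself spread. Oas1a, an oligoadenylate synthetase that makes the activator of the RNA-cutting enzyme RNase L, had 77.3 and 1132 in homozygous arrays, against 282 and 201 in heterozygous and 63.2 and 219 in wild-type arrays. Homozygous array 2 stood alone at the top, and homozygous array 1 lay between the wild-type arrays. Eif2ak2, the kinase PKR that stops translation when it binds double-stranded RNA, had 378 and 629.7 in homozygous arrays, against 347 and 233 in heterozygous and 232 and 332 in wild-type arrays. Both homozygous values lay above the other 4, and the 2 further probe sets of Eif2ak2 also had homozygous values above the others.

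The other sensors gave weak signals. Oas2, a further oligoadenylate synthetase, had 11.9 and 93.1 in homozygous arrays, against 39.2 and 78.6 in heterozygous and 44.4 and 68.3 in wild-type arrays. Homozygous array 1 was under background and homozygous array 2 was the brightest. Oas3 had 29.1 and 34.3 in homozygous arrays, against 10.00 and 15.4 in heterozygous and 16.04 and 12.3 in wild-type arrays, so the homozygous arrays lay just over background and the others under it. Zbp1, which senses nucleic acids of the left-handed Z form, had 5.61 and 14.5 in homozygous arrays, against 45.8 and 43.01 in heterozygous and 4.49 and 15.3 in wild-type arrays, and cleared background in the heterozygous arrays. Dhx58, the sensor LGP2, ranged from 19.7 to 36.2 and its groups overlapped. A further Dhx58 probe set had 24.4 and 74.2 in homozygous, 15.1 and 31.4 in heterozygous and 19.2 and 2.51 in wild-type arrays. The remaining Dhx58 probe set was under background in every array.

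Among the signalling factors and regulators, 7 of 9 were tested and the median log2 difference between the homozygous arrays, array 2 minus array 1, was 1.45. Irf7, the transcription factor that amplifies interferon production, had 30.98 and 611 in homozygous arrays, against 177 and 175 in heterozygous and 69.2 and 157 in wild-type arrays, a 19.7-fold difference between the homozygous arrays. Irf9, a DNA-binding partner of STAT2, had 247 and 951 in homozygous arrays, against 409 and 438 in heterozygous and 358 and 432 in wild-type arrays. For both genes the 4 heterozygous and wild-type values lay between the homozygous ones. Irf1, a factor induced mainly by interferon gamma, had 1125 and 927 in homozygous arrays, against 1148 and 1153 in heterozygous and 1019 and 1202 in wild-type arrays, and its 6 values lay within a narrow range. Stat2 stayed dim, between 30.7 and 59.7, with overlapping groups.

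The product of Usp18 removes Isg15 from proteins and also blocks signalling at the interferon receptor. Its signals were 55.2 and 2255 in homozygous arrays, against 42.01 and 30.9 in heterozygous and 35.03 and 15.8 in wild-type arrays. Homozygous array 2 was 40.8-fold above homozygous array 1 and 68.4-fold above the median of the heterozygous and wild-type arrays, 1 of which was under background. Homozygous array 1 was itself the highest of the remaining 5, though close to background. The geometric mean of the 5 signals other than that of homozygous array 2 was 33.1, under the filter, so the high signal there is a description. Trim25, the ubiquitin ligase that helps activate the sensor RIG-I, had 2106 and 3238 in homozygous arrays, against 2334 and 2959 in heterozygous and 3943 and 2384 in wild-type arrays, with overlapping groups. A dimmer Trim25 probe set had 123 and 125 in homozygous, 79.8 and 38.2 in heterozygous and 92.1 and 65.9 in wild-type arrays. On that probe set both homozygous values lay above the others, while groups overlapped on the remaining probe set.

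The poly-ADP-ribose polymerase family members Parp9 and Parp14 were low in both homozygous arrays. Parp9, which acts with a ubiquitin ligase in the interferon response, had 212 and 577 in homozygous arrays, against 633 and 696 in heterozygous and 605 and 689 in wild-type arrays. Parp14 had 35.9 and 98.4 in homozygous arrays, against 164 and 217 in heterozygous and 102 and 161 in wild-type arrays. In each case homozygous array 1 was the lowest and homozygous array 2 lay just under the lowest of the other 4.

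Oasl2, an oligoadenylate synthetase-like protein, had 26.6 and 767 in homozygous arrays, against 1756 and 1926 in heterozygous and 1603 and 1545 in wild-type arrays. Homozygous array 1 lay barely over background and homozygous array 2, 28.8-fold higher, was still under all of the others. Oasl1, which in mice holds back translation of Irf7 messenger RNA, had 58.4 and 219 in homozygous arrays, against 417 and 558 in heterozygous and 206 and 423 in wild-type arrays, and homozygous array 2 lay within the range of the wild-type pair.

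Of 13 effectors, 10 were tested, 8 of them with at least a 2-fold difference between the homozygous arrays. The Ifit genes encode proteins that bind viral RNA and block its translation. Ifit1 had 14.8 and 935 in homozygous arrays, against 194 and 186 in heterozygous and 152 and 163 in wild-type arrays. As homozygous array 1 was under background, array 2 was at least 38.1-fold higher. Ifit3 had 44.6 and 351 in homozygous arrays, against 102 and 121 in heterozygous and 37.7 and 72.2 in wild-type arrays, and homozygous array 2 was the highest of the 6. Ifit2 behaved otherwise, with 789 and 813 in homozygous arrays, against 608 and 627 in heterozygous and 435 and 501 in wild-type arrays. The homozygous arrays agreed on Ifit2 and lay above the other 4.

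Several further effectors shared the pattern of Ifit1. Rtp4, described first as a receptor transporter protein and induced by interferon, had 51.8 and 2192 in homozygous arrays, against 467 and 155 in heterozygous and 197 and 341 in wild-type arrays, a 42.3-fold difference between the homozygous arrays. Xaf1, which counters an inhibitor of caspases, had 96.1 and 2088 in homozygous arrays, against 567 and 500.2 in heterozygous and 356 and 413 in wild-type arrays. The other Xaf1 probe set disagreed, with 14.5 and 66.1 in homozygous, 15.6 and 27.5 in heterozygous and 574 and 27.9 in wild-type arrays. Samd9l, which restricts poxviruses, had 87.98 and 1457 in homozygous arrays, against 646 and 475 in heterozygous and 735 and 633 in wild-type arrays. Rsad2, the enzyme viperin that makes a nucleotide that ends viral RNA chains, had 57.4 and 535 in homozygous arrays, against 271 and 219.9 in heterozygous and 83.6 and 99.9 in wild-type arrays. On this probe set the heterozygous Rsad2 values lay above the wild-type ones, and homozygous array 2 lay above both. Another Rsad2 probe set had 10.5 and 76.9 in homozygous, 56.7 and 25.2 in heterozygous and 36.9 and 49.5 in wild-type arrays, so heterozygous and wild-type values overlapped. A further one had 32.2 and 164 in homozygous, 97.3 and 47.8 in heterozygous and 29.6 and 42.3 in wild-type arrays, with homozygous array 1 above wild-type array 1. Homozygous array 2 was the highest on each.

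Bst2, the protein tetherin that holds budding viruses at the cell surface, had 589 and 2786 in homozygous arrays, against 601 and 748 in heterozygous and 471 and 617 in wild-type arrays. Ifi35, an interferon-induced leucine zipper protein, had 2768 and 5619 in homozygous arrays, against 2640.4 and 2841 in heterozygous and 2786 and 2638 in wild-type arrays. In these genes homozygous array 1 lay with the other genotypes and homozygous array 2 stood above. Ifitm3, which blocks fusion of viruses in endosomes, was the brightest of the set at 8044 and 10049 in homozygous arrays, against 3914 and 3761 in heterozygous and 3663 and 3874 in wild-type arrays. The homozygous arrays both lay at more than 2-fold the signal of any other array, and differed from each other by a factor of 1.25. Mx1 and Mx2, dynamin-like GTPases that trap viral particles, stayed near or under background, with highest signals of 38.1 in homozygous array 2 for Mx1 and 38.5 in heterozygous array 2 for Mx2.

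The guanylate-binding and immunity-related GTPases coat and disrupt the vacuoles of intracellular parasites, and interferon gamma induces them as well. Gbp2 had the widest range, on a probe set of a type that can also detect related sequences, with 3.43 and 383 in homozygous arrays, against 4449.7 and 2634 in heterozygous and 4029.9 and 5529.5 in wild-type arrays. It was under background in homozygous array 1, and the median of the 4 other genotypes' arrays was at least 173-fold higher. Homozygous array 2 was at least 15.6-fold above array 1 but also well under the others. The other Gbp2 probe set gave 3.72 and 339 in homozygous, 2753 and 1811 in heterozygous and 3337 and 3853 in wild-type arrays, the same order.

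Gbp3 had 36.4 and 989.99 in homozygous arrays, against 762 and 275 in heterozygous and 565 and 680.3 in wild-type arrays. Irgm1, which controls the other immunity-related GTPases, had 442 and 2182 in homozygous arrays, against 673 and 618 in heterozygous and 686 and 646 in wild-type arrays. In both genes the homozygous arrays lay on opposite sides of the others. Igtp had 77.6 and 678 in homozygous arrays, against 647 and 719.6 in heterozygous and 466 and 633 in wild-type arrays, with homozygous array 2 among the other genotypes. Iigp1 had 27.4 and 87.3 in homozygous arrays, against 201 and 147 in heterozygous and 191 and 215 in wild-type arrays, below the others in both homozygous arrays. Cxcl10, the chemokine that draws activated T cells, had 82.5 and 535 in homozygous arrays, against 178 and 49.5 in heterozygous and 123 and 177 in wild-type arrays, and homozygous array 2 stood above the rest.

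The comparison of homozygous with wild-type cells asked which of these genes differed where no normal p53 allele was present. None of the 28 tested genes passed limma's test at a Benjamini-Hochberg adjusted p under 0.05, against 2.67% of all tested genes. At an unadjusted p under 0.05 there were 4 (Gbp2, Iigp1, Ifit2 and Ifitm3), against 28.9% of all tested genes. The median log2 difference of the 28 genes, homozygous minus wild-type, was 0.26, with 16 above 0 and 12 below, and -0.09 over all tested genes. The errors given here are limma standard errors with n = 2 arrays per group.

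Ifitm3 came nearest, with a log2 difference of 1.25 ± 0.23 and a limma adjusted p of 0.0573. It passed with 16 added before taking logs (limma adjusted p = 0.0444), with signals raised to background (limma adjusted p = 0.0438) and with a robust fit (limma adjusted p = 0.0351). Gbp2 had the largest difference, -7.03 ± 2.13 (limma adjusted p = 0.115), or -5.61 with signals raised to background. Iigp1 had -2.05 ± 0.57 (limma adjusted p = 0.103) and Ifit2 had 0.78 ± 0.22 (limma adjusted p = 0.102). The difference for Usp18, 3.91 ± 1.71, came from a wide pair (limma adjusted p = 0.201), as did that for Oasl2, -3.46 ± 1.51 (limma adjusted p = 0.201).

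Each homozygous array was also set alone against the wild-type pair, with the lone array assumed to vary like the others, so these fits describe single arrays and not the genotype. Homozygous array 2 alone was higher in 9 genes (Bst2, Ifit1, Ifit3, Ifitm3, Irf7, Irgm1, Rsad2, Usp18 and Xaf1), or 32.1% against 1.15% of all tested genes. With genes filtered on the 5 arrays other than homozygous array 2 there were 8 of 27, without Usp18, against 1.1% of all genes that passed. It was lower in 1, Gbp2, against 5.02% of all. Homozygous array 1 alone was lower in 11 genes (Gbp2, Gbp3, Ifit1, Igtp, Iigp1, Oasl1, Oasl2, Parp14, Parp9, Samd9l and Xaf1), against 17.4% of all tested genes. It was higher in 1, Ifitm3, against 7% of all. The median of the 28 genes was 1.23 with array 2 alone and -1.03 with array 1 alone. Ifit1 and Xaf1 were called in opposite directions in the 2 arrays, while Ifitm3 was called higher and Gbp2 lower in each.

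**Figure D3:**
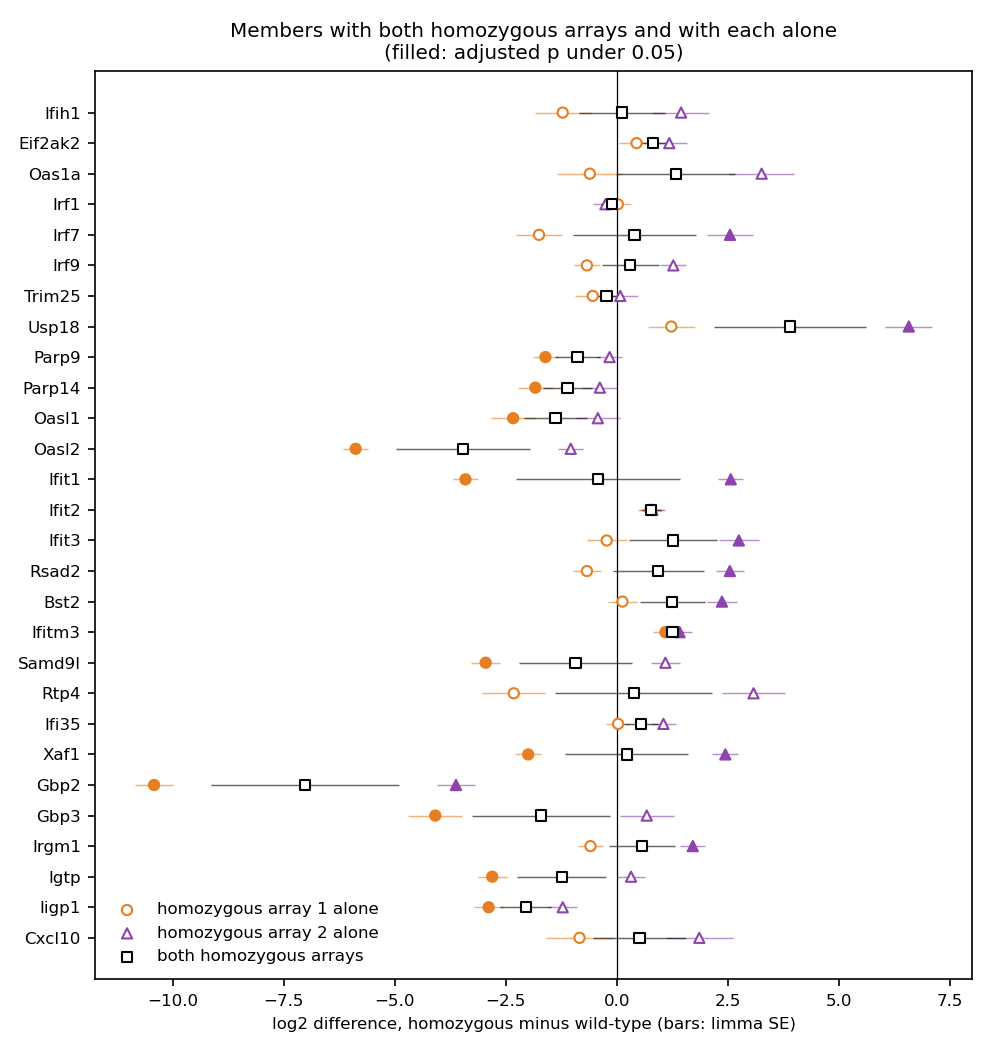
Log2 difference, homozygous minus wild-type, of the 28 tested interferon response genes, with both homozygous arrays (squares) and with array 1 (circles) or array 2 (triangles) alone; bars are limma standard errors and filled symbols have an adjusted p under 0.05. The squares are all open, and the filled circles and triangles lie on opposite sides of 0 for Ifit1 and Xaf1, on the positive side for Ifitm3 and on the negative side for Gbp2.

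The comparison of homozygous with heterozygous cells uses the same homozygous arrays. None of the 28 genes passed limma's test, against 4.09% of all tested genes. At an unadjusted p under 0.05 there were 5 (Gbp2, Iigp1, Oasl1, Parp14 and Ifitm3), against 30.6% of all tested genes. Ifitm3 had a log2 difference of 1.23 ± 0.23 (limma adjusted p = 0.0546). The median difference of the 28 genes was -0.21, with 12 above 0 and 16 below, and -0.08 over all tested genes. Usp18 passed the filter on dim genes only through homozygous array 2, so its call with that array alone is a description. Against the heterozygous pair, homozygous array 2 alone was higher in 6 genes (Bst2, Ifit1, Ifitm3, Irgm1, Usp18 and Xaf1), against 1.2% of all, and lower in Gbp2, against 5.47% of all. Homozygous array 1 alone was lower in 13 genes, those named above with Irf7 and Rsad2 added, against 18.5% of all, and higher in Ifitm3, against 7.54% of all.

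Heterozygous and wild-type cells were closer. None of the 28 genes passed limma's test, at an adjusted or an unadjusted p under 0.05, against 0% and 0.65% of all tested genes. The error pools the spread within all 3 groups, so the wide homozygous pair enters this comparison. The lack of calls therefore does not show that the 2 genotypes are alike. With only the heterozygous and wild-type arrays fitted, 0 of the 28 genes and 0 of all tested genes had an adjusted p under 0.05. The median log2 difference, heterozygous minus wild-type, was 0.16, with 21 genes above 0 and 7 below. Leaving out wild-type array 1 gave 0.11, with 16 above and 12 below, and leaving out heterozygous array 2 gave 0.28, with 22 above and 6 below. Both heterozygous arrays lay above both wild-type arrays for 10 genes, Ifih1, Irf7, Parp14, Oasl2, Ifit1, Ifit2, Ifit3, Rsad2, Xaf1 and Igtp, against 13.2% of all tested genes. For 0 genes did both lie below, against 12.8% of all. The largest difference by size, for Rsad2, was 1.42 ± 1.02 (limma adjusted p = 1.00). That error includes the spread of the homozygous pair, and another Rsad2 probe set had overlapping heterozygous and wild-type values.

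Other genes of the pathway were grouped by role, and 0 genes of these groups were called by limma between any of the 3 genotypes. At an unadjusted p under 0.05 for homozygous minus wild-type there were 6 of 13 genes of receptors, kinases and associated factors and 7 of 18 sensing genes. There were also 1 of 10 feedback inhibitors and 9 of 35 further interferon-stimulated genes. Over all tested genes this share was 28.9%. The interferon genes themselves gave little or no signal. Of 11 interferon genes listed, 8 of type I with Ifng, Ifnl2 and Ifnl3, 7 had a probe set (Ifng, which encodes interferon gamma, and 6 of type I), and none was bright enough to be tested. Ifnb1, the interferon made first in most cells, had 24.9 and 21.8 in homozygous arrays, against 1.98 and 34.95 in heterozygous and 42.4 and 10.3 in wild-type arrays, and its highest value was in wild-type array 1. Ifna1 had 6.44 and 35.9 in homozygous arrays, against 31.6 and 10.5 in heterozygous and 43.2 and 34.6 in wild-type arrays. The homozygous and heterozygous pairs each straddled background. Ifna5 had 21.99 and 30.6 in homozygous arrays, against 8.55 and 7.09 in heterozygous and 10.7 and 3.65 in wild-type arrays, above background in homozygous array 2 alone.

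The group of receptors, kinases and associated factors such as Stat3 and Irf2bp2 did not share the step in homozygous array 2. Of 13 tested genes of this group, 0 were at least 2-fold higher in homozygous array 2 than in array 1 and 4 were at least 2-fold lower, with a median log2 difference of -0.59. Over all tested genes these shares were 14.7% and 6.31%, and the median was 0.04. Ifnar2, a chain of the type I interferon receptor, had 1058 and 804 in homozygous arrays, against 2111 and 3010.1 in heterozygous and 2166 and 1836 in wild-type arrays. Both homozygous arrays lay under the other 4, with a log2 difference of -1.11 ± 0.30 against wild-type (limma adjusted p = 0.0953). Stat3, which transmits several cytokine signals, had 886 and 1534 in homozygous arrays, against 2291 and 2037 in heterozygous and 2957 and 2140.00 in wild-type arrays, with both homozygous values under the others. Irf2bp2, a partner of the repressor IRF2, had 3687 and 1726 in homozygous arrays, against 1751 and 2089 in heterozygous and 1905 and 1794 in wild-type arrays.

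Genes of nucleic acid sensing and of feedback had median differences between the homozygous arrays near that of all tested genes, though some of them were higher in array 2. Of 18 tested sensing genes, 4 were at least 2-fold higher and 1 lower in array 2, against 14.7% and 6.31% of all tested genes, with a median of 0.11. Chosen after their values were seen, the 4 higher genes were Cgas, Ikbke, Irf5 and Adar. Irf5 had 109 and 903 in homozygous arrays, against 1384 and 1192 in heterozygous and 1290 and 1231 in wild-type arrays. Tbk1, the kinase that activates IRF3, had 2768 and 2748 in homozygous arrays, against 2653 and 1923 in heterozygous and 1749 and 2643 in wild-type arrays. Mavs, the mitochondrial adaptor of the RNA sensors, had 1936 and 936 in homozygous arrays, against 1122 and 1437 in heterozygous and 1304 and 1384 in wild-type arrays. Rnaseh2c, a subunit of an enzyme that removes RNA from DNA, had 2478 and 2863 in homozygous arrays, against 2537 and 2852 in heterozygous and 2327 and 2182 in wild-type arrays. Of 10 tested feedback inhibitors, 2 were at least 2-fold higher and 0 lower in array 2, against the same shares of all tested genes, with a median of 0.16. The 2 higher genes, Nlrx1 and Trim30a, were also chosen after their values were seen. Ptpn2, a phosphatase that acts on the kinases of the receptor, had 6157 and 6249 in homozygous arrays, against 6426 and 5189.7 in heterozygous and 5824 and 6058 in wild-type arrays. Ptpn11, the phosphatase SHP2, had 2727 and 4958 in homozygous arrays, against 3571 and 4134 in heterozygous and 3969.9 and 3400.04 in wild-type arrays. Both had overlapping groups. Socs3, a suppressor of cytokine signalling, had 2799 and 1691 in homozygous arrays, against 1562 and 1852 in heterozygous and 1326 and 1726 in wild-type arrays, highest in homozygous array 1.

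Further interferon-stimulated genes were also mostly higher in homozygous array 2 than in array 1. Of 54 listed, 47 had a probe set and 35 were tested. Of these 35, 21 were at least 2-fold higher in homozygous array 2 than in array 1 (14.7% of all tested genes were) and 2 were at least 2-fold lower (6.31% were), with a median log2 difference of 1.35. Set alone against the wild-type pair, homozygous array 1 was lower in 20 of the 35 and higher in 2, against 17.4% and 7% of all tested genes. Homozygous array 2 was lower in 1 and higher in 0, against 5.02% and 1.15% of all. Ly6e, a cell surface protein that acts on viral entry, had 42.1 and 453 in homozygous arrays, against 13076 and 8945 in heterozygous and 6577 and 13341 in wild-type arrays, with both homozygous arrays far under the others (limma adjusted p = 0.0578 against wild-type). Ifitm2, a relative of Ifitm3, had 5155 and 3589.7 in homozygous arrays, against 6907 and 7583 in heterozygous and 8111 and 6158 in wild-type arrays, and both homozygous values lay below the others, unlike those of Ifitm3. Rnf213, a large ubiquitin ligase, had 3793 and 5417 in homozygous arrays, against 6550.1 and 6000.1 in heterozygous and 7824 and 5835 in wild-type arrays. Chosen after its values were seen, Ifitm1, another relative, had 1266 and 25.9 in homozygous arrays, against 72.2 and 189.95 in heterozygous and 179.8 and 44.4 in wild-type arrays, high in homozygous array 1. Chosen in the same way, Ifi27l2a had 3.83 and 746 in homozygous arrays, against 643 and 774 in heterozygous and 489 and 722 in wild-type arrays, under background in homozygous array 1 and level in the other 5 arrays.

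**Figure D4:**
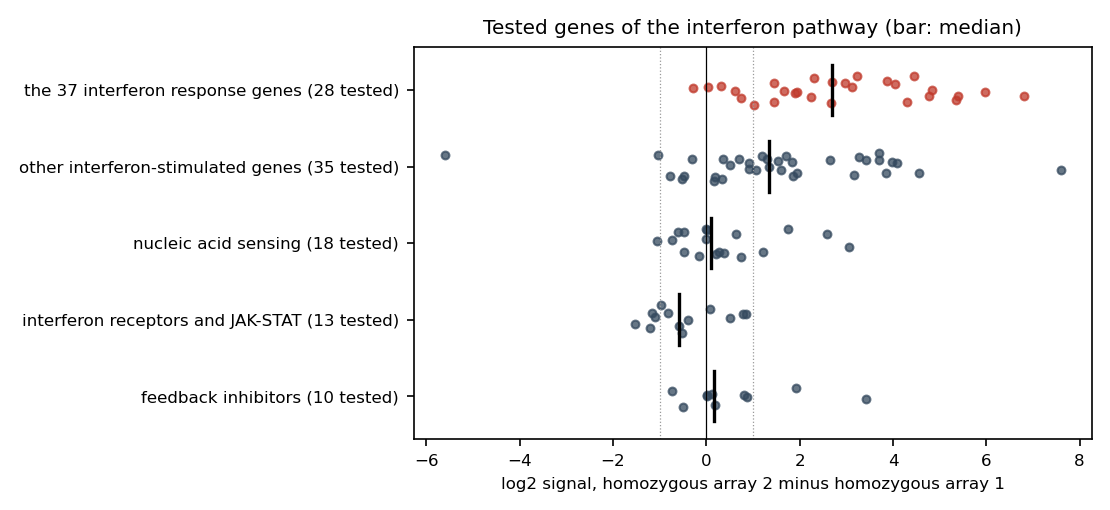
Log2 difference between the homozygous arrays, array 2 minus array 1, for tested genes of the interferon response set and of 4 other groups of pathway genes, 1 point per gene, with the median as a bar and dotted lines at 2-fold. The medians are 2.68 for the 28 response genes, 1.35 for other interferon-stimulated genes, 0.11 for nucleic acid sensing, -0.59 for receptors and JAK-STAT and 0.16 for feedback inhibitors.

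Markers of the epithelium and of other cells differed with homozygosity or between the homozygous arrays. Of 13 surface epithelium genes, which mark the labelled cell type, 12 and 13 exceeded background in homozygous arrays, against 13 in every other array. A count over background does not show how much signal was kept. Their summed signal was 60328 and 77016 in homozygous arrays, 193618 and 154634 in heterozygous and 174035 and 215629 in wild-type arrays. Of these 13 genes, 7 were at least 2-fold higher in homozygous array 2 than in array 1 (14.7% of all tested genes were). At least 2-fold lower in array 2 were 3 of the 13, against 6.31% of all tested genes. Upk1b and Lhx9 were called lower in homozygous cells than in each other genotype. Krt7 and Krt18, keratin genes chosen after their values were seen, differed in opposite directions between the homozygous arrays. Krt7 had 60.5 and 1729 in homozygous, 16318 and 11838 in heterozygous and 17640 and 17717 in wild-type arrays. Krt18 had 25436 and 5623 in homozygous, 11707 and 6729 in heterozygous and 6247 and 12233 in wild-type arrays. Chosen after its values were seen, Aldh1a2, which makes retinoic acid, had 1.06 and 1979 in homozygous arrays, against 19538 and 17988 in heterozygous and 17461 and 18974 in wild-type arrays, so homozygous array 1 was under background. Macrophages are strong responders to interferon, and the summed signal of 14 macrophage genes was 753 and 758 in homozygous arrays, 6008 and 5779 in heterozygous and 3294 and 2735 in wild-type arrays. Of these 14 genes, 8 and 5 exceeded background in homozygous arrays, against 13 or 14 in each other array. Lyz2, Ctss, Tyrobp, C1qa, Itgam and Ptprc were under background in both homozygous arrays, though Itgam exceeded it in heterozygous array 1 alone. Lyz2, Mpeg1 and Ctss were called lower in homozygous than in wild-type and heterozygous cells, and Fcer1g than in heterozygous cells. Chosen after their values were seen, Csf1r, the receptor for a macrophage growth factor, had 55.7 and 488 in homozygous arrays, against 1111 and 756 in heterozygous and 770.3 and 599 in wild-type arrays, and Cd14, a receptor for bacterial lipopolysaccharide, had 222 and 6.28 in homozygous arrays, against 128 and 112 in heterozygous and 70.4 and 45.8 in wild-type arrays. Csf1r was higher in homozygous array 2 and Cd14 in homozygous array 1. The part of these cells in the low homozygous signals of Gbp2, Oasl2, Iigp1, Parp9 and Parp14 was not tested.

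Fibroblast genes also differed between the homozygous arrays. Of 9 listed, 4 and 8 exceeded background in homozygous arrays, against 8 and 9 in heterozygous and 8 and 8 in wild-type arrays, and the median log2 difference, homozygous array 2 minus array 1, over 8 tested was 3.55. Chosen after their values were seen, Postn, a matrix protein, had 22.2 and 2886 in homozygous arrays, against 263 and 219 in heterozygous and 279 and 95.99 in wild-type arrays, and Lum, a collagen-binding proteoglycan, had 2.15 and 1566 in homozygous arrays, against 432 and 884 in heterozygous and 309.98 and 209.7 in wild-type arrays. Both were higher in homozygous array 2. Pdgfra, a growth factor receptor of mesenchymal cells, had 129.5 and 103 in homozygous arrays, against 801 and 1083 in heterozygous and 615 and 1056 in wild-type arrays and was called lower in homozygous cells than in each other genotype. Thy1, a surface protein also chosen after its values were seen, had 3.44 and 37.3 in homozygous arrays, against 622 and 428 in heterozygous and 677 and 458 in wild-type arrays, with both homozygous arrays under the others. The summed signal was 22650 and 59271 in homozygous, 22968 and 33927 in heterozygous and 39665 and 23914 in wild-type arrays. Col1a2, a collagen gene chosen after its values were seen, had 21105 and 32905 in homozygous arrays. It had 5417 and 8309 in heterozygous and 20710 and 6965 in wild-type arrays. The summed signal of homozygous array 1 was therefore mostly that of Col1a2. Of 7 dendritic cell genes with a probe set, 3 and 2 exceeded background in homozygous arrays, 3 and 5 in heterozygous and 4 and 5 in wild-type arrays. Their sum lay between 488 and 690 in homozygous, 668 and 824 in heterozygous and 746 and 860 in wild-type arrays. Of 9 lymphocyte genes with a probe set, 2 exceeded background in each homozygous and heterozygous array and 4 and 2 in wild-type arrays, and Cd3d, Cd79a, Cd79b and Cd2 were under background in all 6 arrays. Their sum was 492 and 415 in homozygous, 355 and 566 in heterozygous and 559 and 462 in wild-type arrays. Of 9 endothelial genes, 4 and 3 exceeded background in homozygous arrays, 4 and 7 in heterozygous and 6 and 7 in wild-type arrays. Kdr, Icam2 and Esam were called lower in homozygous cells than in each other genotype. The endothelial sum was 2362 and 2776 in homozygous, 9143 and 10465 in heterozygous and 10505 and 10954 in wild-type arrays. Granulosa and theca genes summed to 265 and 1379 in homozygous, 2756 and 4355 in heterozygous and 7341 and 4082 in wild-type arrays. Of 3 tested, 3 were at least 2-fold higher in homozygous array 2 than in array 1 (14.7% of all tested genes were), with a median log2 difference of 2.35. The 18S ribosomal RNA 5′ control read 21023 and 6696 in homozygous arrays, and the other 4 readings ran from 16873 to 22559, so it was lowest in homozygous array 2. The middle and 3′ 18S controls were also lowest there, at 1855 and 1171. As a sign of RNA quality, the log2 ratio of 3′ to 5′ control signals for actin was 0.59 and 0.39 in homozygous, 0.66 and 0.96 in heterozygous and 0.77 and 0.74 in wild-type arrays. For Gapdh it was -0.18 and -0.12 in homozygous, -0.13 and 0.01 in heterozygous and -0.02 and -0.03 in wild-type arrays. The part of these differences in the interferon result was not tested.

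By their mean centred log2 signal the 28 genes had a common profile of -1.65 and 1.20 in homozygous arrays, 0.36 and 0.12 in heterozygous and -0.19 and 0.17 in wild-type arrays. The 10 other tested genes with the most similar profile over the 6 arrays were Ikbip, Sec24d, Creb5, Il1rap, Pard6g, Trip6, Fam8a1, Tcf21, Magi3 and Tgfbr3, with Pearson coefficients between 0.983 and 0.993. None is on the lists of pathway genes used here. Tgfbr3, a co-receptor of transforming growth factor beta, had 69.6 and 2116 in homozygous arrays, against 543 and 752 in heterozygous and 465 and 569.6 in wild-type arrays. Tcf21, a transcription factor of mesenchymal cells, had 248 and 7011 in homozygous arrays, against 2289 and 2912 in heterozygous and 1795 and 2005 in wild-type arrays. Creb5 had 151 and 617 in homozygous arrays, against 372 and 359 in heterozygous and 269 and 387 in wild-type arrays. With 6 arrays, and the homozygous pair at either end, such coefficients describe that pair and carry no test.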

How the data were processed

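Per the labels' protocols, total RNA of 6 samples was extracted on columns and biotin-labelled in the usual way for Affymetrix arrays. The deposited values are linear signal intensities with 1 column per array. RMA is named in the submitters' processing notes, with no version given in the sources used here, but the deposited intensity values are not on a log scale. Homozygous array 1, the array for which it was computed, has a mean of 500 over its middle 96% of signals, the form of MAS 5.0 signals. Array medians lay between 41.1 and 60.6. No normalisation was added, log2 was taken without an offset, and array number limits the precision. Dim probe sets spread widely on this scale.

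Of 45101 probe sets, 34958 named a single symbol, 932 several and 9211 none, by the platform annotation, and 34754 of the first kind were matched to RefSeq by Entrez identifier. Genes at or above the 40th percentile of mean log2 signal (geometric mean 60.2) were tested with limma 3.58.1 (R 4.3.3), fitting a mean for each of 3 groups over all 6 arrays and Benjamini-Hochberg adjustment over 10916 genes (3 residual and 2.26 prior degrees of freedom). The procedure was tested on simulated data. Figures used Python 3.11.15 and matplotlib 3.10.9.

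The 37 genes and the lists of pathway and marker genes were chosen with earlier results of these data known. Members above background in any array could be named, with up to 3 genes per pathway list by mean signal, any called pathway gene, and the 10 genes of most similar profile. Cell type markers were named after their values were seen, as called, as under background or as stated, and other genes are said to be so chosen. A fold against a signal under 24.5, the highest of 18 values of bacterial Trpn controls, is a lower bound computed against 24.5. Alternatives changed the log scale, normalisation, filter, choice of probe set, spread and arrays used. Replicate numbers were checked for pairing by the correlation of deviations from the group means, which was -0.10 between homozygous and wild-type, 0.16 between homozygous and heterozygous and -0.30 between heterozygous and wild-type arrays, so the numbers were treated as names. The transcript of the mutated gene was not analysed here.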

Additional observations from a re-analysis of the deposited data

How the results depend on the processing

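The 0 interferon genes called between homozygous and wild-type cells, and between homozygous and heterozygous cells, became 1 (Ifitm3) in each comparison with signals raised to background, with 16 added before logs, with the filter at the 60th percentile (16 genes tested) and with a robust fit. Leaving out 1 array at a time gave 0 to 12 calls for homozygous minus wild-type and 0 to 14 for homozygous minus heterozygous, with medians of -1.03 to 1.23 and -1.87 to 1.14, and the extremes came from leaving out a homozygous array. Filtering at the 60th percentile gave a median of -0.0002 for homozygous minus wild-type. For homozygous minus heterozygous the median turned to 0.0139 with arrays centred on their medians, where all tested genes shifted to 0.14, and to 0.12 with the mean of all probe sets. Centring moved the median of all tested genes for homozygous minus wild-type to 0.22, and that of the interferon genes to 0.57. For heterozygous minus wild-type, leaving out 1 array at a time gave medians of 0.11 to 0.28. The median difference in the heterozygous pair turned to 0.026 with the filter at the 60th percentile. The cause was not tested. With the replicate number as a block, 0 interferon genes were called in each of the 3 comparisons, with medians of 0.26, -0.21 and 0.16. The crossed pairing of heterozygous and wild-type arrays, added after the data were seen, gave 0 calls. Over all tested genes, calls between homozygous and wild-type cells numbered 291, with 686 after raising signals to background, 662 with 16 added, 568 in the robust fit and 0 with the replicate block. Between homozygous and heterozygous cells they numbered 446, with 809, 767, 668 and 19 under the same settings in that order. Signals near background limit the folds of dim genes such as Mx1.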
